A study of Rattus norvegicus with 4 samples.

Results

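Cultured ovaries of newborn rats were examined for 10 genes that hold back the cell cycle: the CDK inhibitor genes Cdkn1a, Cdkn1b, Cdkn1c and Cdkn2c, the retinoblastoma family genes Rb1, Rbl1 and Rbl2, the G-type cyclin genes Ccng1 and Ccng2, and the stress gene Gadd45a. They were chosen by name, as all probe sets with a single gene symbol from this list in the platform's annotation, which gave 13 probe sets of 31099 on the array (10 genes of 14218 with a symbol). Whole ovaries (Rattus norvegicus) were taken on postnatal day 4 and kept on floating filters for 10 days, either with 50 ng/mL anti-Müllerian hormone (AMH) or with no hormone added (control). The serum-free medium of both groups held albumin, transferrin, insulin and ascorbic acid. Each RNA sample was a pool of about 10 ovaries, 2 pools described as independent were made per group, and each went to 1 Affymetrix array, so 4 arrays were compared. The question, from the series title, is how ovarian transcripts respond to AMH as it inhibits the primordial to primary transition. The strain is not given in the sources read here.

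CDK inhibitors are small proteins that stop cyclin-dependent kinases. Those of the Cip/Kip family (p21 from Cdkn1a, p27 from Cdkn1b, p57 from Cdkn1c) bind cyclin and CDK complexes, while those of the INK4 family (p18 from Cdkn2c) bind CDK4 and CDK6. The kinases phosphorylate the pocket proteins pRB, p107 and p130 (from Rb1, Rbl1 and Rbl2), which in their unphosphorylated form hold E2F transcription factors in check. In mice, loss of Cdkn1b leads to early activation of primordial follicles, in which both the oocyte and its flat granulosa cells are arrested.

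The promoters of 3 of these genes are shown because each gene was called changed and its promoter held a motif from the search described next, in capitals here. The sequences are RefSeq's (GRCr8) and run 5′ to 3′ on the gene's strand, with 250 bases before the annotated start and 50 from it on.
Gadd45a promoter, chr4:97486750-97487049, minus strand: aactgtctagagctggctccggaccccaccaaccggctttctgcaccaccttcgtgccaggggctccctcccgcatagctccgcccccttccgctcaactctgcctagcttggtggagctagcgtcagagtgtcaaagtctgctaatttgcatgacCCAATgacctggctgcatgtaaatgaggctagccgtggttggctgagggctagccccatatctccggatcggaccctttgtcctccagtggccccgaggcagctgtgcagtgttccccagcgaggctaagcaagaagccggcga
Cdkn1b promoter, chr4:169491254-169491553, plus strand: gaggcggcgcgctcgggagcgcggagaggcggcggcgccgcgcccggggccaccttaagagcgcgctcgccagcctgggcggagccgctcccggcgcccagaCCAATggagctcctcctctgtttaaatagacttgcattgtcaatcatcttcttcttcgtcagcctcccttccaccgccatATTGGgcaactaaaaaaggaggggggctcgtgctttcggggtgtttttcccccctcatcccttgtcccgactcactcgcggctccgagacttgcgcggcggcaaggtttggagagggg
Rb1 promoter, chr15:54911808-54912107, minus strand: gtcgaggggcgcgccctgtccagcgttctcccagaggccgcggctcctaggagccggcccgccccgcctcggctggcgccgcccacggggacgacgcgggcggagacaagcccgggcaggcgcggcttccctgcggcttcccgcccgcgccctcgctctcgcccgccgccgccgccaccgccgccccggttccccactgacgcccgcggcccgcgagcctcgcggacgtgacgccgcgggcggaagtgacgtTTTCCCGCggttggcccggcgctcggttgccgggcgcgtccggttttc
Promoters of 9 of the 10 genes were matched by gene identifier, and Cdkn1c was not among them. Each was searched on both strands for 6 motifs, none of which contains another: TTTGAA (the CHR element), TTTGGCGC and TTTCCCGC (forms of the E2F site), GTAAACA (forkhead), GTCTAGAC (a SMAD palindrome) and CCAAT. The letters CCAAT or their reverse ATTGG lay in 3 of the 9 promoters, those of Gadd45a (beginning 94 bases before the start), Cdkn1b (148 and 68 bases before) and Ccng1, against 37.5% of all 33469 promoters in the table. TTTCCCGC lay in that of Rb1, beginning 2 bases after the start base (0.974% of all promoters). TTTGAA lay in that of Rbl2 (18.3% of all), 4 bases after the start base. GTAAACA (3.78% of all), TTTGGCGC (0.493%) and GTCTAGAC (0.197%) were not found in these 9 windows. A match is a description of the letters, and no binding was measured.

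Some properties of the arrays bear on every value below. The intensity of the 3′ over the 5′ GAPDH control probe set, a measure of shortened RNA or label, was 6.56 and 6.37 on the AMH arrays and 1.17 and 1.27 on the control arrays. The same ratio for beta-actin was 10.7 and 14.4 on the AMH arrays and 3.17 and 4.6 on the control arrays. The chip identifiers in the labels end in a different string of digits for each group; what it stands for is not stated, and anything it marks cannot be told apart from treatment. Summed over marker lists, oocyte markers had intensities of 7375 and 7744 on the AMH arrays and 10450 and 9788 on the control arrays (5 of 8 tested lower, 3 not called). Granulosa cell markers had 6091 and 4560 with AMH and 3324 and 2835 in control (2 of 8 higher, 6 not called). Markers of theca and stroma had 9459 and 11928 with AMH and 14621 and 13539 in control (1 of 7 higher, 2 lower, 4 not called). These markers differed among themselves. Col1a1, called lower as was Col1a2, had 336.4 and 639.3 with AMH and 4330.2 and 3363.5 in control. Pdgfra was called higher (2128.6 and 1695.2 with AMH, 1113.2 and 1260.3 in control). Hsd3b1, not called, had 1840.3 and 311.8 with AMH and 282.9 and 166.2 in control. Red blood cell markers had 100.3 and 84.5 with AMH and 1406 and 1218 in control (1 of 2 lower, 1 not called). Macrophage and leukocyte markers had 624.6 and 1401.9 with AMH and 887.9 and 719.3 in control (1 of 6 higher, 5 not called). Surface epithelium markers had 1511 and 2908 with AMH and 3519 and 2907 in control, with 0 of 4 called by limma (2 at an unadjusted p under 0.05). Smooth muscle and pericyte markers had 162.6 and 351.2 with AMH and 352.6 and 277.1 in control (1 of 4 lower, 3 not called), and endothelial markers 730.6 and 840.3 with AMH and 789.8 and 747.3 in control (0 of 4 called, and 0 at an unadjusted p under 0.05). No marker was at 0 on all arrays. The oocyte markers differed among themselves: the egg coat gene Zp3 had 2722 and 1978 with AMH and 2531 and 2134 in control and Zp2 was likewise not called, while Gdf9, a growth factor of the oocyte, had 453.7 and 317.7 with AMH and 1725 and 1733 in control. The related growth factor gene Bmp15 (22.6 and 22.3 with AMH, 147.5 and 115.2 in control) and the receptor gene Kit (18.9 and 3.9 with AMH, 75.0 and 45.0 in control) were below 27.8, the mean intensity over the arrays under which a probe set was not tested, on both AMH arrays. The part of RNA length, of what the identifiers mark and of these cell types in the results was not tested, and in whole ovaries fewer cells of a type and less RNA per cell cannot be told apart.

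Of the 13 probe sets, 10 were bright enough to be tested, 1 for each gene. With AMH, 4 were called higher (Ccng2, Rbl1, Cdkn1c and Rb1), 3 lower (Gadd45a, Cdkn2c and Cdkn1b) and 3 were not called (Cdkn1a, Rbl2 and Ccng1). Over all 18625 tested probe sets 21.5% were called, 8.67% higher and 12.8% lower. The groups did not overlap for 8 of the 10 (5 higher, 3 lower), but with 2 arrays per group this was so for 63.5% of all tested probe sets (32.2% higher and 31.2% lower). The median change of the 10 was 0.34, beside 0.02 for all tested probe sets. Each change is the AMH mean minus the control mean of log2(intensity + 16), given ± its standard error from limma with 2 arrays in each group, and called means an adjusted p under 0.05 over all tested probe sets.

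**Figure D1:**
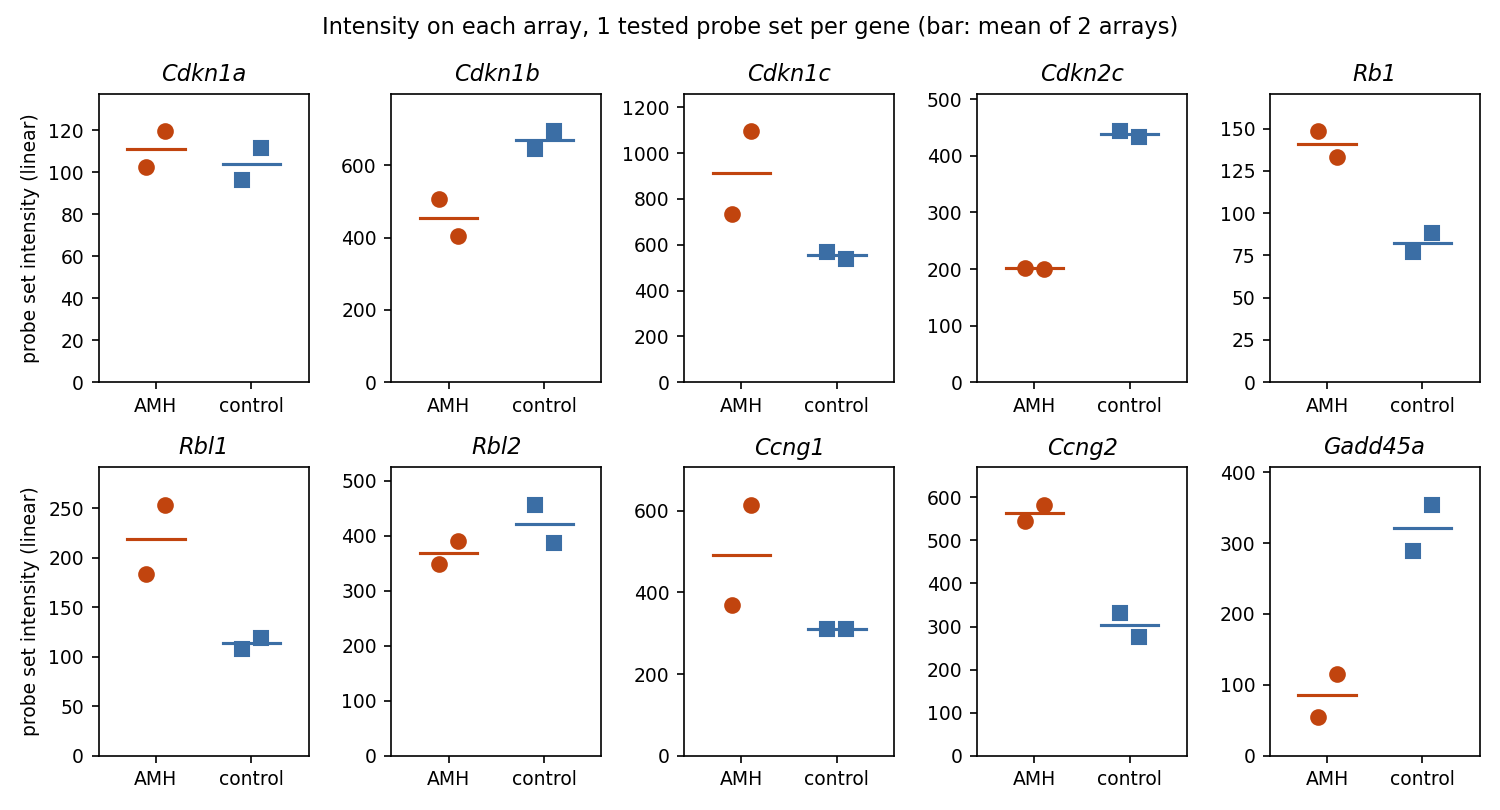
Linear intensity on each of the 2 AMH arrays (red circles) and 2 control arrays (blue squares) for the tested probe set of each gene, with bars at the means and every axis starting at 0. The AMH points lie apart from the control points for all genes but Cdkn1a and Rbl2.

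Among the Cip/Kip genes, Cdkn1b fell, Cdkn1c rose and Cdkn1a was not called. Cdkn1b had intensities of 506.1 and 403.9 on the AMH arrays, against 644.3 and 694.5 on the control arrays. Both AMH values lay below both control values. Its change was -0.55 ± 0.17 (1.46-fold, adjusted p = 0.0494 by limma, 0.000997 to 0.276 over 14 alternatives), just inside the threshold. The call was lost in 8 alternatives, among them those without AMH replicate 2 (-0.39, adjusted p = 0.0763), without control replicate 1 (-0.60, 0.201), without control replicate 2 (-0.50, 0.276) and with median centring of the arrays (-0.48, 0.0693), while the direction stayed the same under all 14.

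Cdkn1c, an imprinted gene in mice whose product p57 is tied to cell cycle exit in many tissues, had 732.1 and 1095.6 on the AMH arrays, against 568.9 and 539.2 on the control arrays. Both AMH values were the higher ones, but they lay 0.57 apart on the log2 scale, and the control values 0.08 apart. Its change was 0.68 ± 0.20 (1.6-fold, adjusted p = 0.0448 by limma, 0.00163 to 0.889 over 14 alternatives). Without AMH replicate 2 the change was 0.39 and no longer called (adjusted p = 0.0732), and without AMH replicate 1 it was 0.96. The call was lost in 9 alternatives, including those without control replicate 1 (0.72, adjusted p = 0.138) and without control replicate 2 (0.64, 0.166), and with quantile normalization (0.62, 0.0551).

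Cdkn1a, whose product is p21, had 102.4 and 119.6 with AMH, against 96.4 and 111.7 in control, so the groups overlapped. Its change of 0.08 ± 0.20 (adjusted p = 0.809 by limma, 0.147 to 0.99 over 14 alternatives) had a 95% interval of -0.38 to 0.54. A change of either sign within that interval could not be seen with these arrays. A second Cdkn1a probe set was dim, with 0.9 and 5.6 with AMH and 6.1 and 15.0 in control, and was not tested. The second probe set of Cdkn1b was dim as well, with 23.7 and 15.4 with AMH and 22.6 and 14.5 in control, and its values overlapped.

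The INK4 gene Cdkn2c fell, and its replicates lay close together. It had 201.7 and 200.4 on the AMH arrays, against 443.8 and 434.3 on the control arrays. The groups lay far apart, and the arrays of each group differed by 0.01 with AMH and 0.03 in control on the log2 scale. Its change was -1.07 ± 0.16 (2.1-fold, adjusted p = 0.00368 by limma). It was called under all 14 alternatives (-1.67 to -0.92, adjusted p 7.14e-05 to 0.0313). A second probe set of the gene, whose name marks probes that may bind other transcripts, had 31.2 and 26.0 with AMH and 29.8 and 22.8 in control, which is near the filter level of 27.8, and was not tested.

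Of the pocket protein genes, Rbl1 and Rb1 rose and Rbl2 was not called. Rbl1, which encodes p107, had 184.1 and 253.8 with AMH, against 107.8 and 119.1 in control. All AMH values exceeded all control values. Its change was 0.85 ± 0.21 (1.8-fold, adjusted p = 0.0242 by limma, 0.00538 to 0.438 over 14 alternatives). The call ended without control replicate 1 (0.78, adjusted p = 0.138) and without control replicate 2 (0.91, 0.0711), and the change was 0.63 without AMH replicate 2 and 1.06 without AMH replicate 1.

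Rb1, which encodes pRB, had 148.5 and 133.0 with AMH, against 76.8 and 88.4 in control. The groups did not overlap, and the replicates lay 0.14 apart with AMH and 0.17 apart in control on the log2 scale (the first AMH array and the second control array being the higher). Its change was 0.67 ± 0.20 (1.59-fold, adjusted p = 0.0446 by limma, 0.0313 to 0.731 over 14 alternatives). The call was lost in 8 alternatives, among them those without AMH replicate 1 (0.60, adjusted p = 0.0786), without control replicate 1 (0.58, 0.288) and without control replicate 2 (0.75, 0.146).

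Rbl2, which encodes p130, the pocket protein most tied to quiescent cells, had 348.2 and 389.7 with AMH, against 456.6 and 387.0 in control. The groups overlapped, with the second AMH array just above the second control array. Its change was -0.18 ± 0.17 (95% interval -0.56 to 0.20, adjusted p = 0.467 by limma, 0.0205 to 0.925 over 14 alternatives).

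Of the G-type cyclin genes, Ccng2 rose and Ccng1 was not called. Ccng2 encodes an unconventional cyclin linked to cell cycle arrest, and in other cells FOXO factors induce it. It had 544.3 and 583.1 with AMH, against 331.8 and 276.4 in control, and the lower AMH array was well above the higher control array. Its change was 0.86 ± 0.16 (1.82-fold, adjusted p = 0.00957 by limma, 0.00552 to 0.458 over 14 alternatives), the largest rise of the 10 genes, and 3.53% of all tested probe sets had a larger one. Of the arrays left out in turn, only control replicate 2 ended the call (0.74, adjusted p = 0.0893).

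Ccng1, whose product is a relative of cyclin G2, had 368.3 and 615.0 with AMH, against 311.3 and 309.8 in control. Both AMH values were higher, but they lay 0.72 apart on the log2 scale while the control values lay 0.01 apart. Its change was 0.59 ± 0.23 (95% interval 0.06 to 1.12), which did not pass after adjustment (adjusted p = 0.104 by limma, 0.00286 to 0.965 over 14 alternatives). The size depended on which AMH array was kept: the change was 0.95 without AMH replicate 1 and 0.23 without AMH replicate 2. With 1 AMH array left, the residual spread comes from the control pair alone, so a call there carries little weight.

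Gadd45a, a gene induced by DNA damage and other stress whose product binds PCNA and p21, had the largest change of the 10. It had 54.9 and 115.8 on the AMH arrays, against 289.2 and 354.1 on the control arrays. The highest AMH value was far below the lowest control value, although the AMH arrays lay 0.89 apart on the log2 scale. Its change was -1.80 ± 0.29 (3.48-fold, adjusted p = 0.00508 by limma), and 1.21% of all tested probe sets fell further. It was called under all 14 alternatives (-2.35 to -1.35, adjusted p 2.55e-05 to 0.0137), the smallest fall being that without AMH replicate 1.

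**Figure D2:**
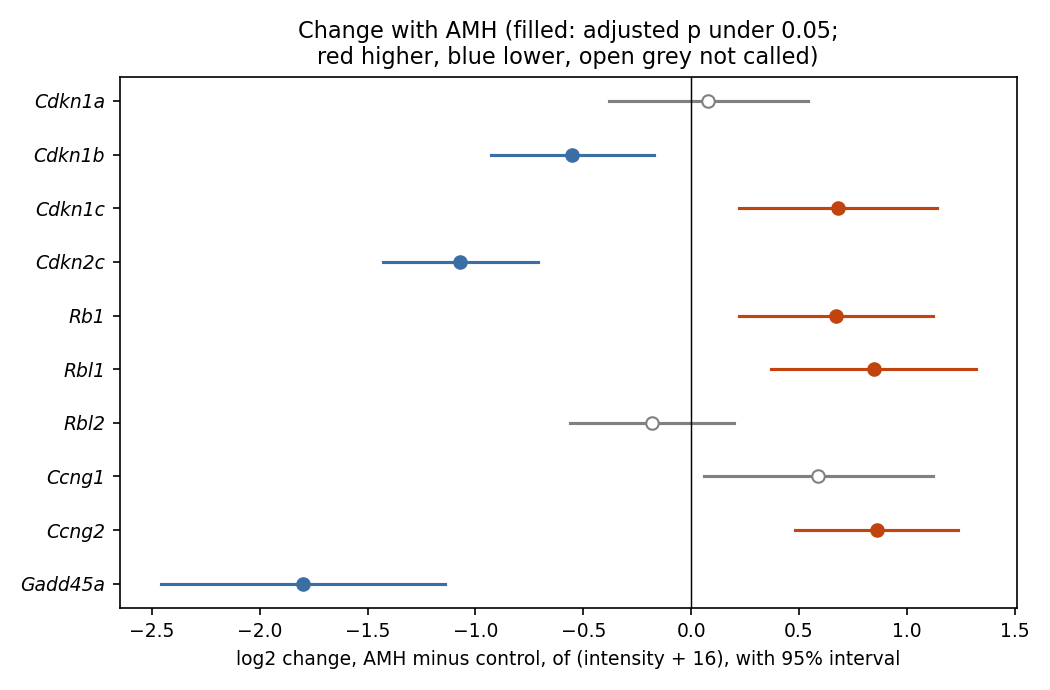
Log2 change of each gene (AMH minus control, of intensity + 16) with its 95% interval from the limma fit of 2 AMH and 2 control arrays. The intervals of Gadd45a and Cdkn2c lie furthest below 0, and those of Cdkn1a and Rbl2 span 0.

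The calls of all 4 rises were lost when the arrays were scaled to added controls, and those of the 3 falls were not. That scaling moved the changes of all 10 genes downward. It therefore works against any rise and for any fall, and cannot show which of them are firmer. With the arrays scaled to the hybridization controls, which report material added after RNA extraction, the median of all tested probe sets moved to -0.52, and 98.4% of all calls were lower, against 59.6% on the deposited scale. Of the 10 genes, limma then called 0 higher and 4 lower (100% of calls lower, against 42.9%), and 0 were higher at an unadjusted p under 0.05. The changes were 0.25 for Ccng2, 0.27 for Rbl1, 0.11 for Rb1 and 0.05 for Cdkn1c, with adjusted p of 0.458, 0.438, 0.731 and 0.889. Relative to the median of all probe sets on that scale they were 0.76, 0.79, 0.63 and 0.57. Gadd45a (-2.35), Cdkn2c (-1.67) and Cdkn1b (-1.17) were called lower on it, Rbl2 passed as lower (-0.80, adjusted p = 0.0205), and Ccng1 and Cdkn1a had negative values (-0.02 and -0.47) without a call. Relative to the median, those of Ccng1 and Cdkn1a were 0.50 and 0.04. In the same terms Gadd45a was at -1.84, Cdkn2c at -1.15, Cdkn1b at -0.65 and Rbl2 at -0.28.

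**Figure D3:**
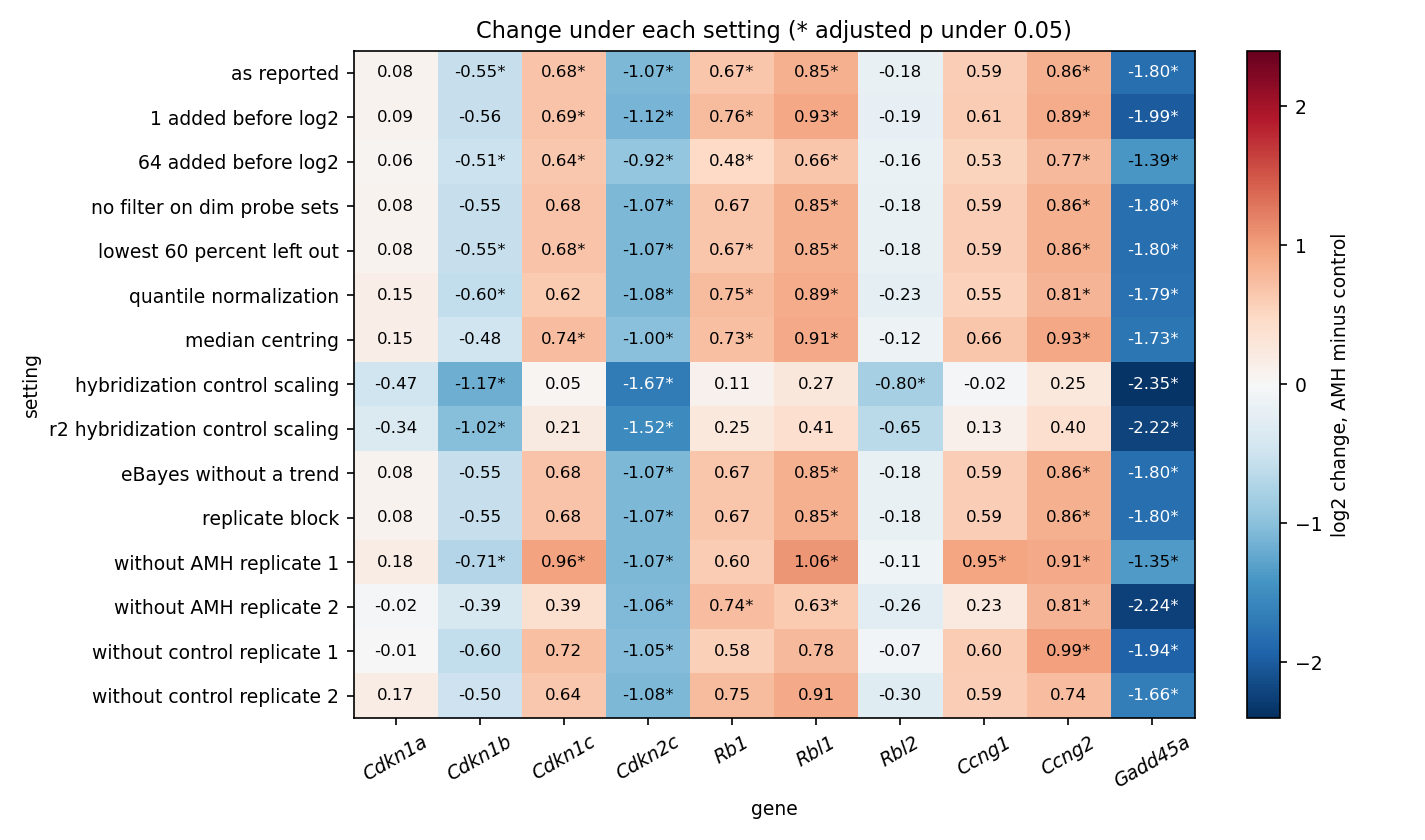
Log2 change of each gene (AMH minus control; columns) under the reported setting and 14 alternatives (rows), coloured by value, with a star where the adjusted p was under 0.05. Cdkn2c and Gadd45a carry a star in every row, and the stars of Cdkn1c, Rb1, Rbl1 and Ccng2 are missing in both rows of hybridization control scaling.

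Genes of cyclins, CDKs and their regulators were mostly lower where called. Of 18 tested probe sets for 13 genes listed as G1/S cyclins and CDKs, 1 was higher, 6 lower and 11 not called (38.9% called, beside 21.5% of all tested probe sets, with a median of -0.25). The list also holds genes of mitosis: the 1 higher was of Cdk1, and the 6 lower include both probe sets of Ccnb1. Cdk4, a target of the INK4 inhibitors, had 326.7 and 446.0 with AMH, against 865.8 and 726.7 in control (-1.02 ± 0.19, adjusted p = 0.00859 by limma, 0.00021 to 0.0595 over 14 alternatives, lost only without control replicate 1). Cdk2, a target of the Cip/Kip inhibitors, had 50.1 and 31.3 with AMH, against 153.3 and 143.1 in control (-1.55 ± 0.24, adjusted p = 0.00409 by limma), and its other probe set fell too (-0.83, adjusted p = 0.0374). At the first of these Cdk2 probe sets the size moved with the constant (-1.88 with 1 added before log2 and -1.02 with 64). The D-type cyclin gene Ccnd2, abundant in granulosa cells, had 425.7 and 454.9 with AMH, against 606.1 and 890.2 in control (-0.72 ± 0.20, adjusted p = 0.0357 by limma, 0.00051 to 0.319 over 14 alternatives). Its call was lost without control replicate 2 (-0.45, adjusted p = 0.319).

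Cyclin B1 (Ccnb1), a cyclin of mitosis, fell at both probe sets: the brighter had 678.1 and 645.1 with AMH, against 1431 and 1404 in control (-1.08 ± 0.14, adjusted p = 0.00204 by limma), and the other gave -1.02 ± 0.15. Its kinase partner gene Cdk1 had 751.1 and 822.5 with AMH, against 491.4 and 467.1 in control (0.70 ± 0.15, adjusted p = 0.0144 by limma, 0.00578 to 0.829 over 14 alternatives). The rise of Cdk1 was not called without control replicate 1 (0.73, adjusted p = 0.101), without control replicate 2 (0.66, 0.121) or with either hybridization control scaling (0.07, and 0.22 with the r2 set). Ccnd1 was not called at its 3 probe sets, and its brightest had 54.9 and 159.5 with AMH and 102.3 and 100.9 in control (-0.08 ± 0.37); its AMH arrays lay on either side of the control arrays, so that it gave 0.58 (adjusted p = 0.0698 by limma) without AMH replicate 1 and passed as lower without AMH replicate 2 (-0.73, adjusted p = 0.0414).

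The other CDK inhibitor genes were near or below the filter or not called in part. Cdkn2d, which encodes p19, had 1 probe set that fell (27.6 and 23.6 with AMH, 105.3 and 69.5 in control, -1.29 ± 0.26, adjusted p = 0.0114 by limma, 0.000217 to 0.119 over 13 alternatives, lost without control replicate 1). The other gave -0.05 ± 0.31, and Cdkn3 gave -0.06 ± 0.17. Cdkn2a (13.3 and 13.7 with AMH, 25.0 and 24.7 in control) and Cdkn2b (5.4 and 2.9 with AMH, 37.7 and 23.1 in control) were not tested. The AMH values of the called Cdkn2d probe set were at or below the filter level, so the size of its change depends on the constant added to the intensities.

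Downstream of the pocket proteins, 1 of 15 tested probe sets for E2F, DP and MuvB genes was higher, 1 lower and 13 not called. That is 13.3% called, beside 21.5% of all tested probe sets, with a median of 0.27. Tfdp1, which encodes the DP1 partner of E2F factors, had 1100 and 1080 with AMH, against 628.8 and 692.5 in control (0.71 ± 0.14, adjusted p = 0.0117 by limma, 0.0052 to 0.796 over 14 alternatives). It was not called without control replicate 1 (0.64, adjusted p = 0.139), without control replicate 2 (0.78, 0.0607) or with hybridization control scaling (0.08). Lin37, a MuvB subunit of the complex that p107 and p130 form on cell cycle promoters, had 45.0 and 47.0 with AMH, against 259.5 and 185.8 in control (-1.93 ± 0.22, adjusted p = 0.0013 by limma). Its size moved with the constant (-2.23 with 1 added before log2 and -1.37 with 64). All 7 E2F genes measured were uncalled, from -0.19 for E2f4 to 0.48 for E2f7.

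Of 15 tested probe sets for replication and proliferation genes, 1 was called higher by limma, 0 lower and 14 not called. That is 6.67% called, beside 21.5% of all tested probe sets, with a median of 0.15. At an unadjusted p under 0.05 by limma 2 were higher and 0 lower. Mcm2, a subunit of the replicative helicase, had 556.0 and 494.3 with AMH, against 316.4 and 325.4 in control (0.68 ± 0.16, adjusted p = 0.019 by limma, 0.00695 to 0.839 over 14 alternatives). Its call was lost without control replicate 1 (0.66, adjusted p = 0.15), without control replicate 2 (0.70, 0.111) and with hybridization control scaling (0.07). The proliferation marker Mki67 had 759.6 and 811.5 with AMH, against 609.1 and 440.4 in control (0.58 ± 0.18, adjusted p = 0.0539 by limma, 0.0377 to 0.922 over 14 alternatives). It passed without AMH replicate 1 and with median centring, and its value was -0.04 with hybridization control scaling. Pcna, the sliding clamp of replication, had 2057 and 2252 with AMH and 1863 and 1924 in control (0.18 ± 0.14, adjusted p = 0.367 by limma), and its value was -0.45 with hybridization control scaling.

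Other stress and growth arrest genes were called in 5 of 19 tested probe sets, 2 higher and 3 lower, with a median of 0.15. The share called, 26.3%, was near the 21.5% of all tested probe sets. Gas6, a growth arrest gene that encodes a ligand of TAM receptors, had 495.4 and 716.0 with AMH, against 279.5 and 317.3 in control (0.96 ± 0.20, adjusted p = 0.0133 by limma, 0.00107 to 0.31 over 14 alternatives). It was not called without control replicate 1 (0.88, adjusted p = 0.0714) or with hybridization control scaling (0.35), and its other probe sets gave 0.66 and -0.17 without a call. Ppm1d, a stress-induced phosphatase, gave 0.54 ± 0.16 (552.0 and 491.0 with AMH, 375.0 and 332.0 in control, adjusted p = 0.0459 by limma, 0.0197 to 0.839 over 14 alternatives) and was called in 5 of the 14 alternatives. It lost the call without AMH replicate 1 (0.46), control replicate 1 (0.62) and control replicate 2 (0.46), and had a negative value (-0.07) with hybridization control scaling.

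The ubiquitin ligase gene Mdm2 and its relative Mdm4 gave different answers by probe set. The brightest Mdm2 probe set had 439.2 and 393.9 with AMH, against 565.6 and 586.0 in control (-0.45 ± 0.15, adjusted p = 0.0679 by limma, 0.00197 to 0.347 over 14 alternatives), and passed as lower without AMH replicate 1. A dimmer one was called lower (3.2 and 16.5 with AMH, 92.4 and 57.8 in control, -1.84 ± 0.34), with AMH values below the filter level, so its size moved with the constant (-3.11 with 1 added before log2 and -0.91 with 64). The other gave 0.30 ± 0.17. Mdm4 had 124.1 and 159.2 with AMH, against 304.1 and 266.0 in control (-0.94 ± 0.19, adjusted p = 0.012 by limma, 0.000307 to 0.102 over 14 alternatives, lost without control replicate 1), and 0.65 ± 0.25 at its other probe set. Sesn2, a stress gene, gave -0.98 ± 0.21 (83.9 and 63.3 with AMH, 149.9 and 169.4 in control, adjusted p = 0.0147 by limma), a call lost without control replicate 1 (0.0609) and without control replicate 2 (0.0976; 0.000166 to 0.0976 over 14 alternatives). The relatives of Gadd45a were not called: Gadd45b gave -0.02 ± 0.28 and Gadd45g -0.91 ± 0.29 (adjusted p = 0.0567 by limma).

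Probe sets of genes listed for the SCF ubiquitin ligase and FOXO factors were mostly called lower. Turnover of p27 and activity of FOXO factors were not measured. Of 12 tested probe sets of SCF, FOXO and AKT genes, 1 was higher, 8 lower and 3 not called, with a median of -0.84. That is 75% called, beside 21.5% of all tested probe sets (12.8% lower). The 8 lower probe sets belonged to 6 genes. Cks1b, the cofactor with which the SCF ligase recognises p27, had 335.0 and 326.8 with AMH, against 975.4 and 903.2 in control (-1.46 ± 0.15, adjusted p = 0.00079 by limma), and fell at its other probe set as well (-0.77). Foxo1 had 24.5 and 35.9 with AMH, against 228.1 and 192.3 in control (-2.30 ± 0.23, adjusted p = 0.000708 by limma), and with 64 added in place of 16 its change was -1.54, since its AMH level was close to that of the filter.

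Foxo3, the FOXO gene that holds mouse primordial follicles dormant, had 515.5 and 627.3 with AMH, against 633.2 and 563.1 in control. Its groups overlapped, with a change of -0.07 ± 0.17 (adjusted p = 0.803 by limma, 0.042 to 0.991 over 14 alternatives). Akt1, whose kinase inactivates FOXO factors, had 74.9 and 55.4 with AMH, against 217.1 and 242.9 in control at the probe set that fell most (-1.61 ± 0.21, adjusted p = 0.002 by limma), and -0.53 ± 0.15 at a brighter one. The scaffold gene Cul1 had 1813 and 1792 with AMH, against 1246 and 1300 in control (0.50 ± 0.13, adjusted p = 0.0339 by limma, 0.0146 to 0.964 over 14 alternatives). Its call was lost without control replicate 1 (0.47) and control replicate 2 (0.53), and with hybridization control scaling the value was -0.14. The RING subunit gene Rbx1 fell at 1 probe set (394.7 and 583.7 with AMH, 1427 and 1160 in control, -1.39 ± 0.21, adjusted p = 0.00375 by limma) and gave 0.34 ± 0.16 at the other.

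**Figure D4:**
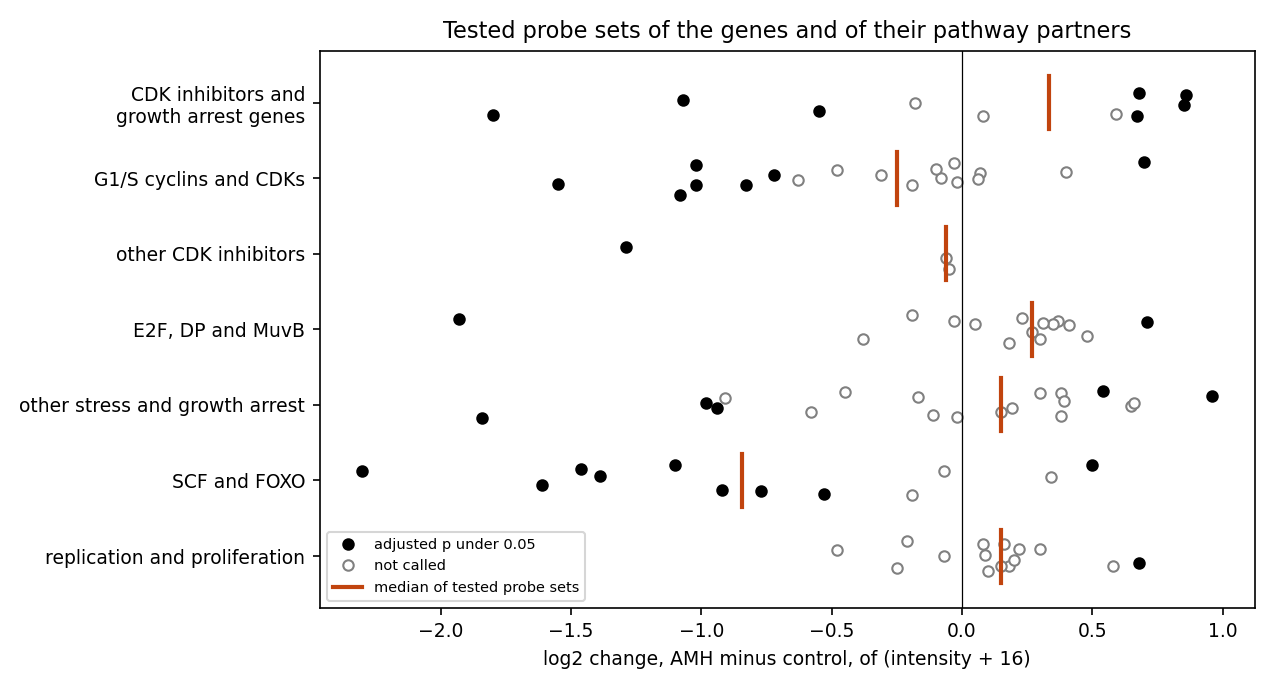
Log2 change (AMH minus control, of intensity + 16) of each tested probe set, with rows for the CDK inhibitors and growth arrest genes and for 6 lists of pathway partners; filled points had an adjusted p under 0.05, and a bar marks the median. The medians run from -0.84 for SCF and FOXO genes to 0.34 for the CDK inhibitors and growth arrest genes.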

How the data were processed

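The authors deposited a table of linear intensities, 31099 probe sets on 4 arrays. The summarisation software and background method are not given in the sources used here. Trimmed of 2 percent at each end, the mean was 125.03 on all arrays, so the deposited intensities share 1 target. The table holds no detection calls, read depth does not apply, and the number of arrays limits precision. Replicates are pools that the labels' protocols call independent.

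Groups came from the sample titles. After log2(intensity + 16), 57 control probe sets and the lowest 40% by mean over the arrays (below 5.453, which is an intensity of about 27.8) were left out. AMH was compared with control over 18625 probe sets in R 4.3.3 with limma 3.58.1 (lmFit, eBayes with an intensity trend, two-sided, Benjamini-Hochberg, threshold 0.05), with 2 residual and about 6.33 prior degrees of freedom. No permutation of 2 against 2 arrays can go below p = 0.333, so p-values rest on the pooled spread. In the platform annotation 20832 probe sets have 1 symbol, 436 several and 9831 none listed, and all 10 genes matched RefSeq (GRCr8) by identifier and symbol.

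Members and lists were chosen with earlier results of these data known. All members are named; of the 73 partner genes (66 with a probe set), up to 4 called, non-overlapping probe sets per list and direction are named, plus the brightest probe set of Mdm2, Ccnd1, Ccnd2, Cdk2, Cdk4, Foxo3, Mki67 and Pcna. Skp2, also in that rule, had no probe set listed under this symbol, and 1 further gene of the rule is not reported here. Cdkn3, Cdkn2a, Cdkn2b, E2f4, E2f7, Gadd45b, Gadd45g and other probe sets of named genes were added after their values were seen. Alternatives were the constant (1 or 64), the filter (none or 60%), quantile normalization, median centring, hybridization control scaling by either of 2 sets of 9 control probe sets (the r2 set added after seeing the data), no trend, a replicate block and each array left out.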

Additional observations from a re-analysis of the deposited data

How the results depend on the processing

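Of the 10 genes, Gadd45a and Cdkn2c were called under all 14 alternatives, Ccng2 under 11, Rbl1 under 10, Cdkn1b and Rb1 under 6 and Cdkn1c under 5; of the uncalled, Ccng1 and Rbl2 each passed under 1 and Cdkn1a under 0. The 14 include both hybridization control scalings, under which the 3 falls were called and the 4 rises were not. These counts therefore cannot rank rises against falls. No called gene of these 10 changed sign. Hybridization control scaling gave 112 higher and 7030 lower probe sets in all, 0 higher among the 10 genes, and 0 higher and 34 lower among the partner lists; the r2 set gave 146 and 4935 in all and 0 higher in both (limma, and 0 at an unadjusted p under 0.05 under either set), with Ppm1d at -0.07 and Cul1 at -0.14 under the first set. With no filter 1010 probe sets were higher in all and 2 of the members (1614 and 4 as reported), and without a trend 989 and 2. With 1 array left out in turn, all tested probe sets gave 334 to 2245 higher and 1047 to 2886 lower, the members 0 to 4 higher and 2 to 3 lower, and the partner lists 0 to 9 higher and 13 to 21 lower. At an unadjusted p under 0.05, 4 of the members were higher without control replicate 2 and 8 of the partner lists without control replicate 1, where 0 passed after adjustment. The lowest counts came without control replicate 1 or 2, where the residual spread comes from the AMH pair alone. With an AMH array left out it comes from the control pair alone, and calls gained there rest on 1 AMH array. Otherwise the cause was not tested. The replicate numbers share only a number: deviations of same-numbered arrays correlated at -0.000816, and with the replicate block 2 of the 10 genes were called higher and 2 lower, against 4 and 3. Of 20 named partner probe sets that were called, 9 were called under every alternative that tested them. They were of Akt1, Ccnb1, Cks1b, Lin37, Foxo1, Mdm2, Rbx1 and Cdk2, and all were falls. That of Mdm2 was tested under 13 of the 14, since the stricter filter left it out, and its AMH values lay below the filter level. Named probe sets were mostly chosen because they were called, so this count does not describe the partner lists as a whole. It cannot compare rises with falls either, since both hybridization control scalings gave 0 higher among the partner lists. Dim probe sets and 2 arrays per group limit what could be seen.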

Other observations

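Probe sets of the same gene often gave different answers on these arrays. Of the partner genes, 15 had at least 2 tested probe sets and 9 of these had at least 1 called. For 4 of the 9 every probe set was called the same way, and for 4 (Gas6, Mdm2, Mdm4 and Rbx1) a called probe set stood beside one of opposite sign. Over all genes, 1202 had a called probe set and at least 1 more tested, and for 675 of them (56.2%) the signs differed, with 99 called in both directions. Each of the CDK inhibitor and growth arrest genes had only 1 tested probe set, so none of their changes was measured a second time on the array. Rbx1 shows the size of such differences, with 394.7 and 583.7 on the AMH arrays and 1427 and 1160 on the control arrays at one probe set, and 482.7 and 458.7 on the AMH arrays and 352.0 and 386.5 on the control arrays at the other.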
